A study of Mus musculus with 12 samples.

Results

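The proliferation genes described here are 48 genes that dividing cells use to copy and separate their chromosomes: 20 genes of S phase, 24 genes of G2 and mitosis (G2/M) and 4 cyclin D and kinase genes of G1. They were chosen by name, and all 48 were found among the 18911 genes of the deposited table through their Ensembl identifiers and GRCm38 symbols. The RNA came from mouse neural progenitor cells (mNPCs) grown from the hippocampus of P0 pups, in a study of a mouse model of Wiedemann-Steiner syndrome, and was sequenced after poly(A) selection in 12 libraries, 3 for each of 4 genotypes. Kmt2a+/+ is the wild type. Kmt2a+/LSL carries a loxP-flanked stop cassette in the first intron of 1 allele of Kmt2a, which encodes a histone H3K4 methyltransferase. The nes-cre+/- genotype carries Cre under the nestin promoter, which is active in neural cells, with both Kmt2a alleles intact. In nes-cre+/-Kmt2a+/LSL the same Cre removes the cassette in the nervous system. All mNPCs were kept in a serum-free medium with FGF-2 and EGF, the growth factors that hold progenitors in division. The labels do not say which libraries came from separate pups, litters or cultures, so every p-value here measures only the spread between these libraries.

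In S phase the MCM helicase, loaded onto origins of replication by the licensing factors, opens the double helix, the polymerases copy both strands, and ribonucleotide reductase and thymidylate synthase supply the building blocks. In G2 and mitosis, cyclin B with CDK1 drives entry, the Aurora and Polo-like kinases build the spindle, and the anaphase-promoting complex (APC/C) ends mitosis by marking cyclins and securin for destruction. Most of these genes are switched on only in cycling cells: E2F factors drive many S-phase genes at the G1/S border, and the DREAM and MuvB complexes act on many G2/M genes through a CHR element and nearby CCAAT boxes bound by NF-Y. In bulk RNA, fewer dividing cells and less of a transcript in each dividing cell cannot be told apart.

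The S-phase and G2/M genes differed in the letters their promoters hold, which the choice of genes did not use. RefSeq promoters of GRCm38.p6, from 250 bases before to 50 bases after the start of the gene, were found for 40 of the 48 genes. The letters TTTCCCGC or TTTGGCGC (E2F), TTTGAA (CHR) and CCAAT were searched on both strands, and no match of one motif shared a base with a match of another. Genes were counted, and a gene with several promoters (Mcm7, Uhrf1 and Ect2 among the members) was counted as holding a motif if any of them did. A match to either of these E2F forms was found for 7 of 17 S-phase genes (41.2%) and for 0 of 21 G2/M genes. Other forms were not searched, so a gene without a match may still hold one. The close variant TTTCGCGC, for example, occurs in the Cdk1 promoter below. Over the 12319 tested genes with a promoter, 3.03% had one. The CHR letters showed the opposite: 16 of 21 G2/M genes (76.2%) and 1 of 17 S-phase genes (5.88%) held them, against 14.7% of the tested genes. CCAAT was found for 17 of 21 G2/M genes (81.0%) and for 12 of 17 S-phase genes (70.6%), against 42.3%. Neither of the 2 G1 genes with a promoter held any of the motifs. A match is only a run of letters in this window and was not tested for binding. Below are the 250 bases before the start of 4 promoters, shown because they hold the most matches among the genes whose values are given in every library below, all of them G2/M genes. They are written 5′ to 3′ on the strand of the gene, with CHR and CCAAT matches of either strand in capitals.
Top2a (chr11:99024190-99024439, minus strand): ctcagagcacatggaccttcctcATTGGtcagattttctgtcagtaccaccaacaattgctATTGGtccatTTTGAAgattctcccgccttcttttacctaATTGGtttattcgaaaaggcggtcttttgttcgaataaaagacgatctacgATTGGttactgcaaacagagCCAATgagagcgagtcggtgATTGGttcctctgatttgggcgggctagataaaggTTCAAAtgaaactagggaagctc
Ube2c (chr2:164769679-164769928, plus strand): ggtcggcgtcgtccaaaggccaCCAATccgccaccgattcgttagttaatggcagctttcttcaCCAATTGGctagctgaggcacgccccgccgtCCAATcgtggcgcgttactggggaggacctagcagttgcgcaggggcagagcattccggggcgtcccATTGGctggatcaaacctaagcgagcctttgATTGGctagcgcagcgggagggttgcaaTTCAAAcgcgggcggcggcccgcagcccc
Cdk1 (chr10:69352913-69353162, minus strand): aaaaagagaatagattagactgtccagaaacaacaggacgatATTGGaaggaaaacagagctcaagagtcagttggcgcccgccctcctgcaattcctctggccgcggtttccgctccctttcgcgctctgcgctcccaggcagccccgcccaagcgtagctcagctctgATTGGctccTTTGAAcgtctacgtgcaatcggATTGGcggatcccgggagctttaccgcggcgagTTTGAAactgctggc
Mki67 (chr7:135716380-135716629, minus strand): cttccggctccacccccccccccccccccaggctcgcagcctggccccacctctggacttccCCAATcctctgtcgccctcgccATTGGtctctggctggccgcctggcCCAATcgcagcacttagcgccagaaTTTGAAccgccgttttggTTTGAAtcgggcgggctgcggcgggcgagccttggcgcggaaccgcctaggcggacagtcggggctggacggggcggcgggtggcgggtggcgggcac

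In the Top2a promoter, CHR matches lay 179 and 23 bases before the start, with 6 CCAAT matches among them or upstream. Ube2c had 1 CHR match, 29 bases before the start, and 6 CCAAT matches, a pair of which overlap in a palindrome. Cdk1 had CHR matches 71 and 15 bases before the start, and Mki67 had them 116 and 98 bases before it.

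The libraries held between 18280008 and 28596919 counts. Kmt2a, the targeted gene, measured between 280.5 and 300.3 CPM (counts scaled to the TMM-normalized library size) in Kmt2a+/+, 165.8 to 166.6 in Kmt2a+/LSL, 282.9 to 310.0 in nes-cre+/- and 259.0 to 284.4 in nes-cre+/-Kmt2a+/LSL, so the libraries followed their labels. The log2 fold change of Kmt2a in Kmt2a+/LSL against Kmt2a+/+ was −0.80 (SE 0.13, edgeR adjusted p = 0.281). All 6 neural progenitor markers (Nes, Sox2, Pax6, Hes5, Fabp7 and Vim) were found in every library, with a summed level of 5299 to 12699 CPM. Markers of microglia, endothelium, meninges and red blood cells summed to at most 3.66 CPM in any library. Hba-a1, Hbb-bs and Cldn5 were not in the deposited table, so red blood cells were judged by Alas2 alone. Markers of neurons summed to 1016 to 1917 CPM, but most of this was Map2, at 980 to 1874 CPM. Each of the other neuron markers (Tubb3, Dcx, Rbfox3, Snap25 and Syt1) stayed at or under 28.2 CPM. Markers of astrocytes summed to 2455 to 4842 CPM and those of the oligodendrocyte lineage to 1176 to 5334 CPM. The Kmt2a+/+ libraries stood apart. Replicates of Kmt2a+/+ correlated with the others of their genotype at a median Pearson r of 0.903 to 0.943 across genes, against 0.967 to 0.984 in the other genotypes. Kmt2a+/+ replicate 1 also had 12.7% of its counts on mitochondrial genes and nes-cre+/-Kmt2a+/LSL replicate 1 had 10.3%, where the other libraries had 3.96% to 6.88%.

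Every proliferation gene was well covered. The lowest count of any member in any library was 88, for Cdt1 in Kmt2a+/+ replicate 1, and the mean over the 12 libraries ran from 9.71 CPM for Cdc6 to 1078 CPM for Ccnd2. Per kilobase of the longest coding transcript, the mean was 102 CPM for Pcna, 96.7 for Top2a, 55.3 for Mki67 and 202 for Cdk4, the highest, and 2.11 for Cdc6, the lowest. All 48 passed the filter on low counts. Of the 31-base words in the transcripts, 66.2% in Gins2, 33.4% in Mcm7, 27.8% in Ccnb1, 26.7% in Cdc20 and 25.3% in Ube2c also occur in other genes, so reads of these genes may be split between copies, and their values are less certain.

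Among the S-phase genes, the MCM helicase subunits and Gins2 had the narrowest spread, with an SD of their mean level of 0.44 within genotypes on the log2 scale, against 0.69 for the polymerase and clamp genes. Mcm2 (GRCm38 chr6:88883474-88898780, minus strand) measured 81.8, 58.8 and 141 in Kmt2a+/+, 130.2, 82.3 and 99.5 in Kmt2a+/LSL, 118, 71.02 and 63.7 in nes-cre+/-, and in nes-cre+/-Kmt2a+/LSL 98.5, 81.2 and 104 CPM. Within each genotype its libraries spanned more than the 4 genotype means did. Mcm4, another subunit of the same ring, measured 192, 45.8 and 87.3 in Kmt2a+/+, 114, 71.4 and 71.1 in Kmt2a+/LSL, 101, 61.9 and 51.4 in nes-cre+/-, and in nes-cre+/-Kmt2a+/LSL 90.9, 59.6 and 79.1. For Mcm5 the values were 9.76, 5.57 and 14.7 in Kmt2a+/+, 10.8, 7.59 and 9.13 in Kmt2a+/LSL, 10.2, 7.48 and 6.79 in nes-cre+/-, and in nes-cre+/-Kmt2a+/LSL 10.8, 7.98 and 18.01. All 3 subunits were lowest in Kmt2a+/+ replicate 2, and each of the 3 had its highest value in a different library: Kmt2a+/+ replicate 3 for Mcm2, Kmt2a+/+ replicate 1 for Mcm4 and nes-cre+/-Kmt2a+/LSL replicate 3 for Mcm5.

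Genes of licensing, of the replication fork and of nucleotide supply were likewise lowest in Kmt2a+/+ replicate 2. Cdc6, which loads the helicase at origins, measured 12.7, 4.37 and 12.8 in Kmt2a+/+, 17.8, 6.99 and 9.74 in Kmt2a+/LSL, 12.8, 5.13 and 4.89 in nes-cre+/-, and in nes-cre+/-Kmt2a+/LSL 10.4, 7.27 and 11.7 CPM. Pcna, the sliding clamp of the polymerases, measured 286, 75.5 and 141 in Kmt2a+/+, 237, 128 and 125 in Kmt2a+/LSL, 186, 130.5 and 100.2 in nes-cre+/-, and in nes-cre+/-Kmt2a+/LSL 154, 122 and 168. Prim1, the primase subunit, measured 54.4, 10.6 and 18.5 in Kmt2a+/+, 28.2, 17.2 and 17.1 in Kmt2a+/LSL, 23.4, 16.4 and 13.7 in nes-cre+/-, and in nes-cre+/-Kmt2a+/LSL 27.5, 16.9 and 21.7. Both were highest in Kmt2a+/+ replicate 1. Rrm2, the regulated subunit of ribonucleotide reductase, measured 247, 47.1 and 113 in Kmt2a+/+, 185, 93.1 and 104 in Kmt2a+/LSL, 146, 102 and 70.9 in nes-cre+/-, and in nes-cre+/-Kmt2a+/LSL 132, 89.6 and 121. In Kmt2a+/LSL and nes-cre+/- replicate 1 was the highest of its genotype for each of these 4 genes. Of the regulators at the G1/S border, Ccne1 (cyclin E) measured 24.98, 9.70 and 20.4 in Kmt2a+/+, 24.2, 14.9 and 17.6 in Kmt2a+/LSL, 21.99, 15.9 and 11.2 in nes-cre+/-, and in nes-cre+/-Kmt2a+/LSL 17.03, 15.5 and 18.8. E2f1, the transcription factor that drives S-phase genes, measured 7.38, 7.35 and 17.6 in Kmt2a+/+, 17.2, 11.01 and 14.00 in Kmt2a+/LSL, 14.3, 11.8 and 9.06 in nes-cre+/-, and in nes-cre+/-Kmt2a+/LSL 9.81, 10.7 and 13.3. E2f1 did not share the high value of Kmt2a+/+ replicate 1 that the fork genes had: it was as low there as in Kmt2a+/+ replicate 2.

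The G2/M genes spread over a wider range than the S-phase genes. Mki67, which coats mitotic chromosomes and is the standard marker of dividing cells, measured 1429, 206 and 484 in Kmt2a+/+, 707, 437 and 451 in Kmt2a+/LSL, 555, 444 and 342 in nes-cre+/-, and in nes-cre+/-Kmt2a+/LSL 573, 450.4 and 598 CPM. Top2a, the topoisomerase that untangles sister chromatids, measured 1147, 187 and 414 in Kmt2a+/+, 696, 416 and 409.6 in Kmt2a+/LSL, 572, 434 and 317 in nes-cre+/-, and in nes-cre+/-Kmt2a+/LSL 617, 373 and 479. They were 6.95-fold and 6.14-fold higher in Kmt2a+/+ replicate 1 than in Kmt2a+/+ replicate 2, with every library of the other genotypes between these 2. Cdk1, the kinase of mitotic entry, measured 96.8, 33.1 and 87.5 in Kmt2a+/+, 119, 64.9 and 78.4 in Kmt2a+/LSL, 99.7, 74.6 and 55.9 in nes-cre+/-, and in nes-cre+/-Kmt2a+/LSL 82.4, 67.2 and 74.8. Its partner Ccnb1 (cyclin B1) measured 310.4, 64.05 and 169 in Kmt2a+/+, 237, 142 and 142 in Kmt2a+/LSL, 186, 149.7 and 112 in nes-cre+/-, and in nes-cre+/-Kmt2a+/LSL 210.0, 136 and 132. For both, Kmt2a+/+ replicate 2 was the lowest and replicate 1 the highest within Kmt2a+/LSL, nes-cre+/- and nes-cre+/-Kmt2a+/LSL.

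Aurkb, the kinase of the chromosomal passenger complex, measured 49.3, 16.1 and 60.1 in Kmt2a+/+, 65.4, 31.7 and 45.98 in Kmt2a+/LSL, 54.8, 36.9 and 28.7 in nes-cre+/-, and in nes-cre+/-Kmt2a+/LSL 42.6, 43.2 and 42.04 CPM. Plk1, the Polo-like kinase, measured 66.9, 32.6 and 109.8 in Kmt2a+/+, 121, 64.5 and 87.3 in Kmt2a+/LSL, 94.7, 73.3 and 58.1 in nes-cre+/-, and in nes-cre+/-Kmt2a+/LSL 69.4, 78.7 and 73.2. In both, Kmt2a+/LSL replicate 1 was the highest of the 12 libraries. Cdc20, an activator of the APC/C, measured 88.6, 44.2 and 155 in Kmt2a+/+, 149, 82.1 and 112 in Kmt2a+/LSL, 118, 99.7 and 75.6 in nes-cre+/-, and in nes-cre+/-Kmt2a+/LSL 91.97, 99.6 and 93.4. Ube2c, a ubiquitin-conjugating enzyme of the APC/C, measured 65.3, 37.6 and 97.4 in Kmt2a+/+, 119, 75.7 and 80.1 in Kmt2a+/LSL, 109.6, 84.8 and 65.99 in nes-cre+/-, and in nes-cre+/-Kmt2a+/LSL 121, 80.4 and 88.5. Both were lowest in Kmt2a+/+ replicate 2. Kif23, a kinesin of cytokinesis, measured 63.6, 10.9 and 24.2 in Kmt2a+/+, 45.5, 26.2 and 25.9 in Kmt2a+/LSL, 33.2, 27.4 and 20.6 in nes-cre+/-, and in nes-cre+/-Kmt2a+/LSL 31.1, 21.5 and 26.4. Kif20b, another kinesin of late mitosis, had the widest range of all 48 genes, 54.2, 3.62 and 11.1 in Kmt2a+/+, 13.3, 12.5 and 8.10 in Kmt2a+/LSL, 22.4, 12.8 and 9.02 in nes-cre+/-, and in nes-cre+/-Kmt2a+/LSL 19.2, 5.81 and 9.16. From its lowest to its highest library Kif20b spanned 15.0-fold, against 1.81-fold for Cdk4, the narrowest, and a median of 4.08-fold over the 48 genes.

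Of the G1 genes, Ccnd2, Cdk4 and Cdk6 were more even, with SDs within genotypes of 0.30, 0.24 and 0.40 on the log2 scale. Ccnd1 was not, with an SD of 0.78 and a 4.81-fold range. Ccnd1 (cyclin D1), which growth factors induce, measured 696, 145 and 539 in Kmt2a+/+, 672, 281 and 375 in Kmt2a+/LSL, 549.5, 262 and 231 in nes-cre+/-, and in nes-cre+/-Kmt2a+/LSL 509, 321 and 387 CPM and followed the S-phase genes, with its lowest value in Kmt2a+/+ replicate 2. Ccnd2 (cyclin D2) measured 1255, 919.6 and 1197 in Kmt2a+/+, 1218, 1051 and 867 in Kmt2a+/LSL, 1098, 1039.7 and 912 in nes-cre+/-, and in nes-cre+/-Kmt2a+/LSL 1132, 777 and 1474. Cdk4, a kinase that the D cyclins activate, measured 264, 414 and 454 in Kmt2a+/+, 415, 406 and 436 in Kmt2a+/LSL, 459, 401 and 443 in nes-cre+/-, and in nes-cre+/-Kmt2a+/LSL 361, 453 and 479. The related kinase Cdk6 measured 22.8, 45.2 and 27.9 in Kmt2a+/+, 24.5, 26.8 and 36.9 in Kmt2a+/LSL, 21.2, 37.1 and 38.8 in nes-cre+/-, and in nes-cre+/-Kmt2a+/LSL 40.4, 48.1 and 33.4, and Kmt2a+/+ replicate 2 was its highest Kmt2a+/+ library, the reverse of the S-phase and G2/M genes.

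**Figure D1:**
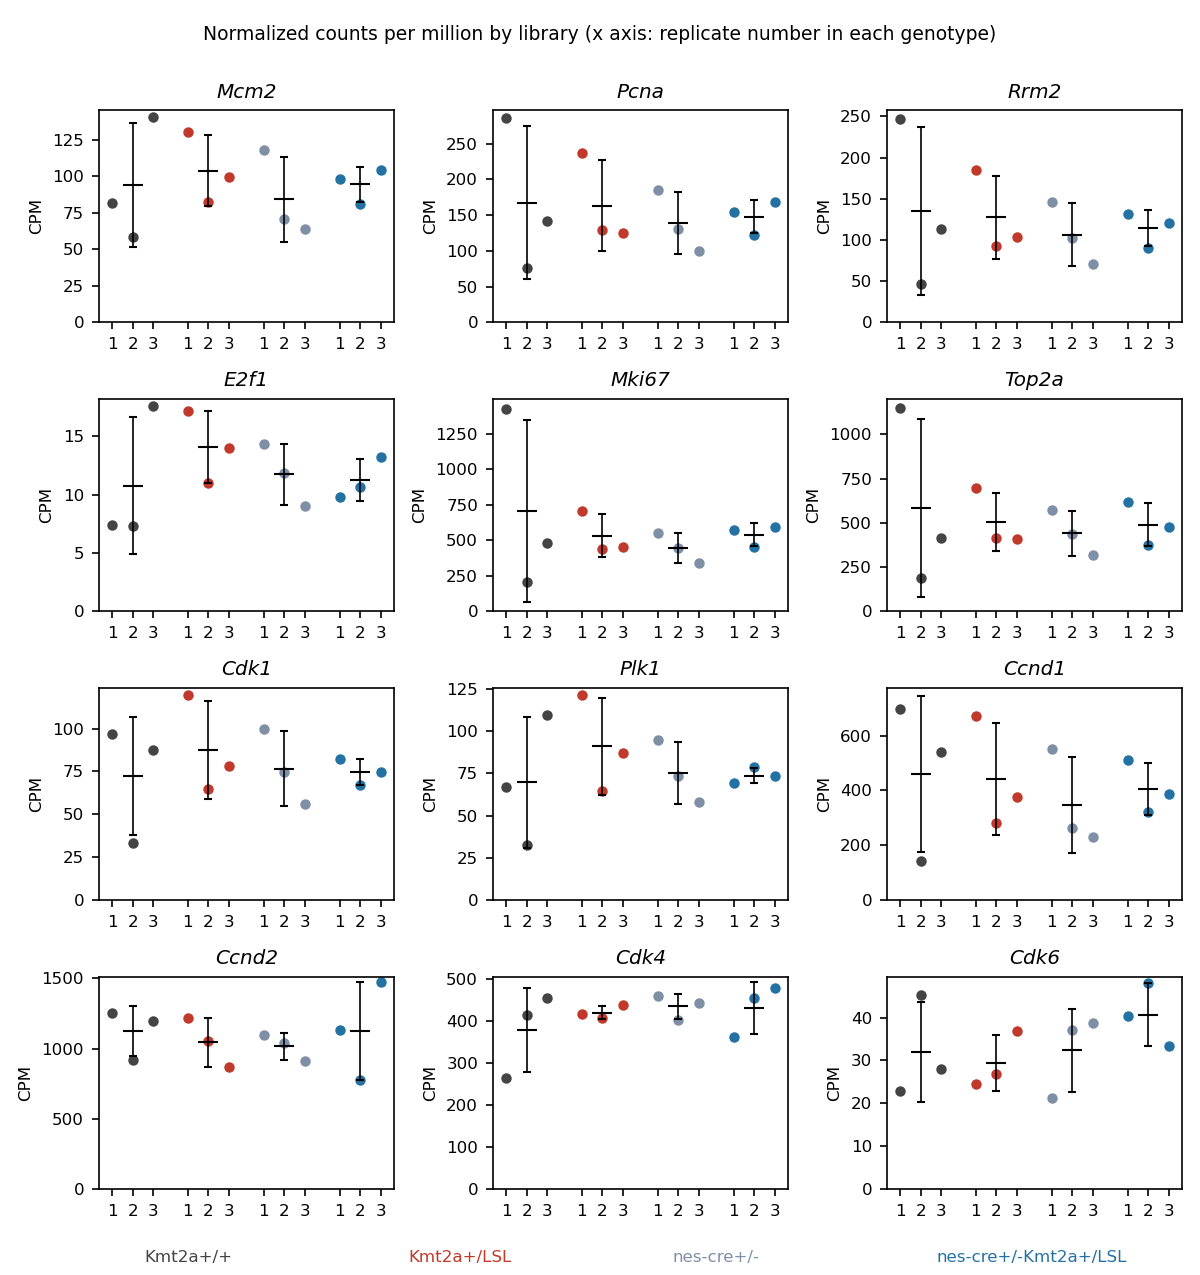
Normalized CPM (y axis, from 0) of 12 genes in each library, by replicate number and genotype (colour); black marks give the mean and SD of the 3 libraries of a genotype. Mki67 runs from 206 to 1429 CPM within Kmt2a+/+ alone, while Cdk4 stays between 264 and 479 CPM over all libraries.

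Set side by side, the S-phase and G2/M genes varied more between libraries of 1 genotype than between genotype means. Each value was expressed as a log2 deviation, the log2 normalized count minus the mean of the gene over the 12 libraries, and averaged over a group to give the level of that group in a library. The S-phase level was 0.57, −0.92 and 0.26 in the 3 Kmt2a+/+ libraries, 0.58, −0.19 and −0.03 in Kmt2a+/LSL, 0.36, −0.24 and −0.51 in nes-cre+/-, and in nes-cre+/-Kmt2a+/LSL it was 0.16, −0.21 and 0.18. The G2/M level was 1.03, −1.31 and 0.01 in Kmt2a+/+, 0.59, −0.15 and −0.08 in Kmt2a+/LSL, 0.30, −0.05 and −0.44 in nes-cre+/-, and in nes-cre+/-Kmt2a+/LSL it was 0.34, −0.20 and −0.03. The libraries of all genotypes overlapped in both groups, and the Kmt2a+/+ libraries held the lowest level of both and the highest level of the G2/M group. Between these 2 libraries the G2/M level differed by 2.34 on the log2 scale, or 5.07-fold. For S phase, the largest difference was 2.82-fold, between Kmt2a+/LSL replicate 1 and Kmt2a+/+ replicate 2. The SD within a genotype, pooled over the 4, was 0.51 for S phase and 0.66 for G2/M, while the genotype means spanned 0.25 and 0.21. For the G1 genes the same SD was 0.15 and the genotype means spanned 0.19. This average joins genes that moved apart, such as Ccnd1 (−1.38) and Cdk6 (0.47) in Kmt2a+/+ replicate 2.

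**Figure D2:**
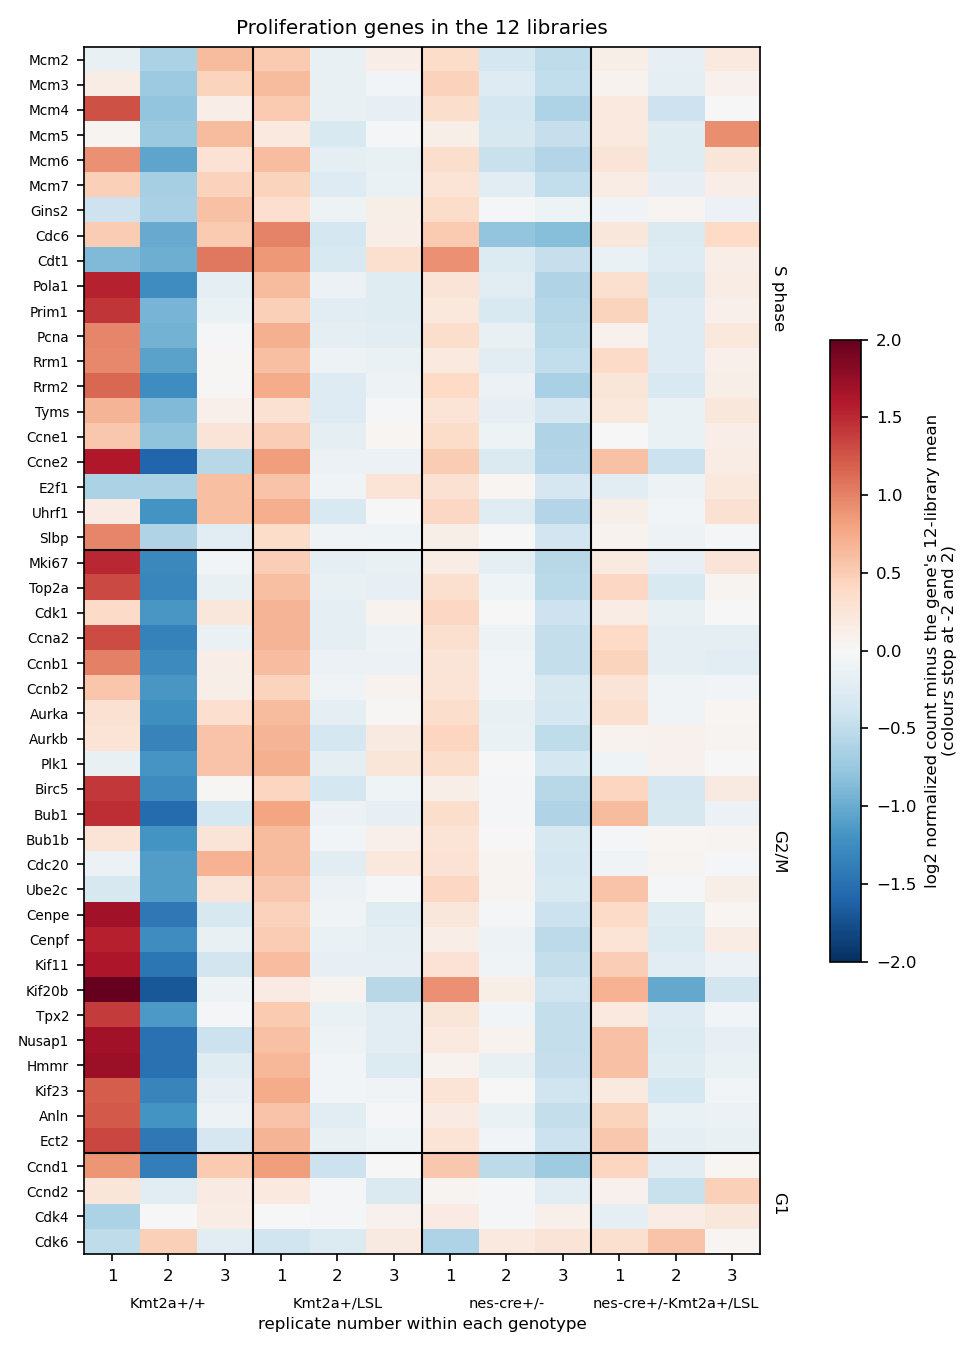
Log2 normalized count of each of the 48 genes (rows, by group) minus its mean over the 12 libraries (columns, by genotype and replicate number), in red where higher and blue where lower. Kmt2a+/+ replicate 2 is blue for every S-phase and G2/M gene, and Kmt2a+/+ replicate 1 is red for 37 of these 44.

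Kmt2a+/+ replicate 2 was the lowest of the 12 libraries for 45 of the 48 genes (93.75%), including all S-phase and G2/M genes, against 10.7% of the 10866 genes with a mean count of at least 100. Kmt2a+/+ replicate 1 was the highest for 30 of the 48 (62.5%), against 36.5% of those genes. Replicate 1 was the highest of its genotype for 46 of 48 genes in Kmt2a+/LSL and 47 in nes-cre+/-, where this held for 3541 and 4425 of the 10866 genes. In nes-cre+/-Kmt2a+/LSL it was the highest for 29 of 48, beside 4202 of the 10866, and for 9 of the 20 S-phase genes. In all 4 genotypes at once this held for 27 of 48 (56.25%), against 9.64% of the genes with a mean count of at least 100. The median SD within genotypes was 0.60 for the S-phase genes, 0.73 for the G2/M genes and 0.35 for the G1 genes on the log2 scale, beside 0.36 for the genes with a mean count of at least 100.

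The S-phase and G2/M levels had similar values in most libraries. The G2/M level exceeded the S-phase level by 0.47 in Kmt2a+/+ replicate 1 and was below it in the others, with differences of −0.39 in replicate 2 and −0.25 in replicate 3. In the other genotypes this difference stayed between −0.22 and 0.19. By role, the kinetochore, motor and spindle genes (Cenpe, Cenpf, Kif11, Kif20b, Tpx2, Nusap1 and Hmmr) had the widest swing within Kmt2a+/+, from 1.69 in replicate 1 to −1.42 in replicate 2. The licensing factors Cdc6 and Cdt1 had levels of −0.18 and −0.99 in the same libraries, and 0.79 in replicate 3.

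Markers of the astrocyte and oligodendrocyte lineages differed between these libraries too. The level of the 5 astrocyte markers (Gfap, Aqp4, Aldoc, S100b and Slc1a3) was −0.88, 1.04 and −0.22 in Kmt2a+/+, 0.09, 0.53 and −0.06 in Kmt2a+/LSL, −0.58, 0.56 and 0.55 in nes-cre+/-, and in nes-cre+/-Kmt2a+/LSL it was −0.30, −0.49 and −0.22. It was highest in Kmt2a+/+ replicate 2, where the S-phase and G2/M levels were lowest. The summed level of these markers ran from 2827 to 4842 CPM in Kmt2a+/+, 2734 to 4102 in Kmt2a+/LSL, 2726 to 3441 in nes-cre+/- and 2455 to 3144 in nes-cre+/-Kmt2a+/LSL, and none of the 5 was at 0 in any library. None of the cell type markers passed at an adjusted p in the edgeR fit. The 6 markers of the oligodendrocyte lineage had a level of −1.42, 0.59 and 0.01 in Kmt2a+/+ and between −0.43 and 0.58 in the other libraries. After removal of the GC trend, described below, the Kmt2a+/+ values were −0.63, 0.50 and −0.16. The 6 neuron markers had levels of −0.02, 0.12 and −0.32 in Kmt2a+/+, and the 6 neural progenitor markers had −0.51, 0.15 and 0.09, or 0.06, 0.08 and −0.04 after removal of the GC trend. The part of other cell types in the levels of the proliferation genes was not tested.

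**Figure D3:**
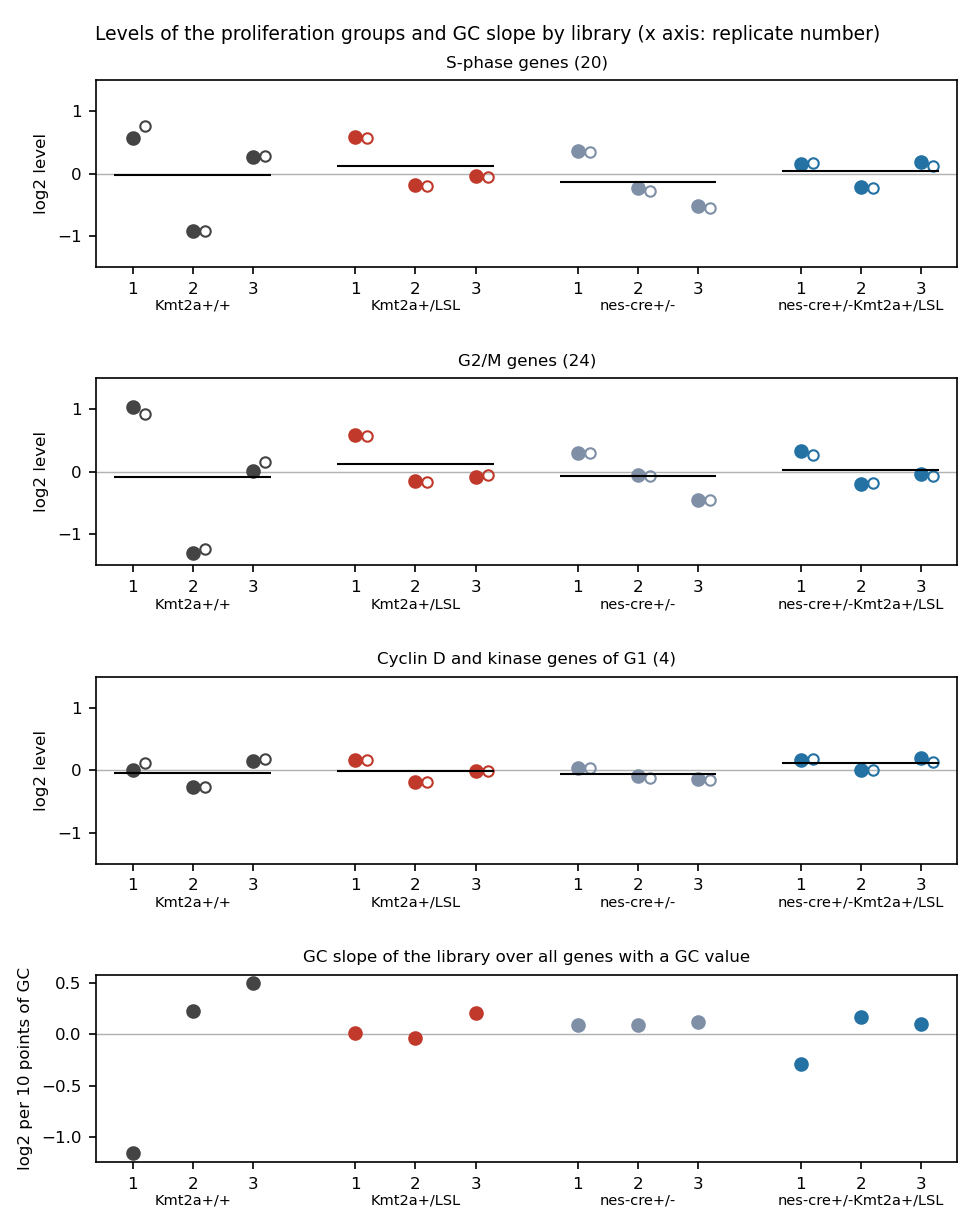
Level of the 20 S-phase, 24 G2/M and 4 G1 genes in each library (filled points, log2 deviation averaged over the group; open points, after removal of the GC trend; lines, genotype means) and, at the bottom, the GC slope of each library. The Kmt2a+/+ libraries span −1.31 to 1.03 for G2/M, and their GC slopes span −1.16 to 0.49.

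The libraries also differed in how counts depended on GC content, and the proliferation genes were placed against that trend. The GC slope of a library is the change in log2 deviation for 10 percentage points of GC in the transcript, over the 16926 tested genes with a GC value. It was −1.16, 0.23 and 0.49 in Kmt2a+/+, 0.01, −0.03 and 0.20 in Kmt2a+/LSL, 0.08, 0.08 and 0.11 in nes-cre+/-, and in nes-cre+/-Kmt2a+/LSL it was −0.29, 0.17 and 0.10. The median GC content was 48.6% for the S-phase genes, 46.2% for the G2/M genes and 49.0% for the G1 genes, against 50.04% over all tested genes. Kmt2a+/+ replicate 1, with the steepest slope, favoured transcripts of low GC.

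In this library the order of the proliferation genes was close to their order by GC. The 14 members under 45% GC had a median log2 deviation of 1.55 and all lay above 0, whereas the 17 members of 50% GC or more had a median of 0.05 and 9 lay above 0. Kif20b (39.4% GC) deviated by 2.18, Hmmr (41.8%) by 1.70 and Ccne2 (36.3%) by 1.61. Cdt1 (58.8%), E2f1 (58.3%) and Cdc20 (55.6%) deviated by −0.88, −0.64 and −0.12. Across the 48 genes, which share the library and are not independent, Pearson's r between GC and deviation was −0.86 in this library and 0.90 in Kmt2a+/+ replicate 3, where the order was the opposite. In Kmt2a+/+ replicate 2 it was 0.42, and genes of low and high GC both lay under their means, with medians of −1.43 and −0.98. In nes-cre+/-Kmt2a+/LSL replicate 1, the other library with a clearly negative slope, r was −0.76.

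**Figure D4:**
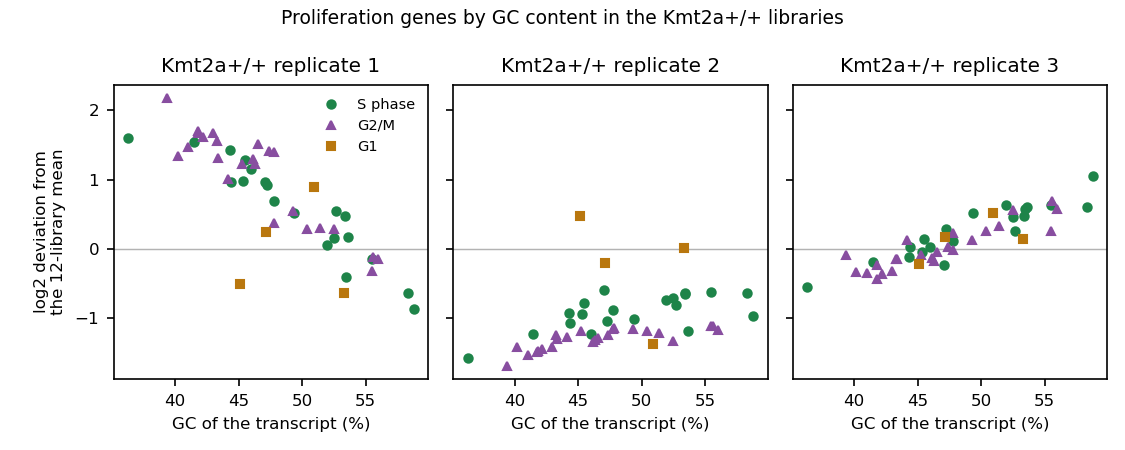
Log2 deviation of each proliferation gene from its 12-library mean (y axis) against the GC content of its longest coding transcript (x axis, %) in the 3 Kmt2a+/+ libraries. Points fall from upper left to lower right in replicate 1 (r = −0.86 across genes), lie below 0 for 46 of 48 genes in replicate 2, and climb in replicate 3 (r = 0.90).

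Removing the GC trend of each library left the levels apart. After a per-library smooth over GC was subtracted, the S-phase level in Kmt2a+/+ was 0.76, −0.92 and 0.28 and the G2/M level was 0.92, −1.24 and 0.17. In Kmt2a+/+ replicate 1 the number of members above their mean went from 39 to 47 of 48, and in Kmt2a+/+ replicate 3 from 28 to 43. E2f1 moved from −0.64 to 0.77 in replicate 1 and Cdt1 from −0.88 to 0.59, while Kif20b moved from 2.18 to 1.47. In Kmt2a+/+ replicate 2, 46 of 48 members lay below their mean before and 47 after. The pooled SD within genotypes was then 0.54 for S phase and 0.62 for G2/M, and the genotype means spanned 0.27 and 0.19.

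edgeR's quasi-likelihood F-test was run in 1 fit over the 12 libraries, with Benjamini-Hochberg adjustment over 17076 genes and a threshold of 0.05 on the adjusted p. The first question is whether any proliferation gene differed among the 4 genotypes. None of the 48 had an adjusted p under 0.05, and 0% of all genes tested did. At an unadjusted p under 0.05 it was 0 of the 48, against 1.15% of all genes. The smallest unadjusted p-values in edgeR were those of Ube2c (0.444), Cdk6 (0.484), Mcm5 (0.484), Kif20b (0.516), Mcm4 (0.559) and Prim1 (0.640), each with an adjusted p of 1.00. edgeR's common estimate of how far replicates of a genotype scatter, given as a coefficient of variation, was 0.37. Without Kmt2a+/+ replicate 1 it was 0.23, and still 0 of 48 had an adjusted p under 0.05. DESeq2's likelihood ratio test called 0 of 48 and had 0 at an unadjusted p under 0.05. For DESeq2 the share of all genes was counted only in Kmt2a+/LSL against Kmt2a+/+, given below. Limma-voom with quality weights called 0 and had 4 at an unadjusted p under 0.05 (3.37% of all genes).

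Kmt2a+/LSL was compared with Kmt2a+/+ to see whether the loss of 1 functional Kmt2a allele went with a difference in the machinery of division. An adjusted p under 0.05 was reached by 0 of 48 (0% of all genes) and an unadjusted p under 0.05 by 0 of 48, against 1.79% of all genes in edgeR. In 0 of the 48 did the 3 libraries of one genotype all lie above the 3 of the other, against 4.05% of all genes. The median log2 fold change was −0.05 over the S-phase genes, of which 8 were positive and 12 negative, and −0.14 over the G2/M genes, of which 8 were positive and 16 negative, with a median of 0.00 over all genes. By the mean of the log2 levels, 16 of the 20 S-phase genes were higher in Kmt2a+/LSL and 4 lower, and 20 of the 24 G2/M genes were higher and 4 lower. For G2/M, in edgeR without Kmt2a+/+ replicate 1, all 24 had positive values. In the fit over all libraries all 7 kinetochore, motor and spindle genes had negative values, from −1.02 to −0.34. The mitotic kinases Plk1, Aurka and Aurkb had positive values of up to 0.38 and Birc5, a partner of Aurkb in the chromosomal passenger complex, had −0.42. Of the 4 cyclin and CDK genes 2 were positive and 2 negative, and 3 of the 4 checkpoint and APC/C genes had positive values of up to 0.45. A difference between these roles was not tested. The GC content of the 7 genes was 39.4% to 47.8%. Ube2c had the largest positive value, 0.45 (SE 0.33, edgeR adjusted p = 1.00), and Kif20b (ENSMUSG00000024795, GRCm38 chr19:34922361-34975745, plus strand) the largest negative, −1.02 (SE 0.78, edgeR adjusted p = 1.00).

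These directions turned with single libraries of both genotypes. Without Kmt2a+/+ replicate 1 the medians were 0.35 for S phase and 0.62 for G2/M, and without Kmt2a+/+ replicate 2 they were −0.40 and −0.56. Without Kmt2a+/+ replicate 3 they were −0.02 and −0.33, without Kmt2a+/LSL replicate 1 −0.27 and −0.45, without Kmt2a+/LSL replicate 2 0.06 and −0.02, and without Kmt2a+/LSL replicate 3 0.06 and 0.00. Kif20b turned from −1.02 to 0.61 without Kmt2a+/+ replicate 1 and to −1.53 without replicate 2. Ube2c, at 0.45, was 0.13 with a per-library GC offset in the fit, 0.17 without Kmt2a+/+ replicate 2, 0.83 without Kmt2a+/+ replicate 3 and 0.22 without Kmt2a+/LSL replicate 1. Limma-voom gave Kmt2a+/+ replicate 1 a weight of 0.054, the lowest of the 12, and its medians were 0.57 and 0.89, with all 44 S-phase and G2/M genes positive. In that fit 0 of 48 passed at an adjusted p and 23 had an unadjusted p under 0.05 (7.68% of all genes), 19 of them in the G2/M group, with the smallest adjusted p of a member at 0.65. In edgeR without Kmt2a+/+ replicate 1, 9 of 48 had an unadjusted p under 0.05 (8.95% of all genes) and 0 an adjusted one. DESeq2's Wald test had 0 of 48 at either threshold, against 1.90% of all genes at an unadjusted p under 0.05. The means of the log2 levels, which weigh high and low libraries alike, differed by 0.15 for S phase and 0.21 for G2/M, opposite in sign to the fitted medians.

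**Figure D5:**
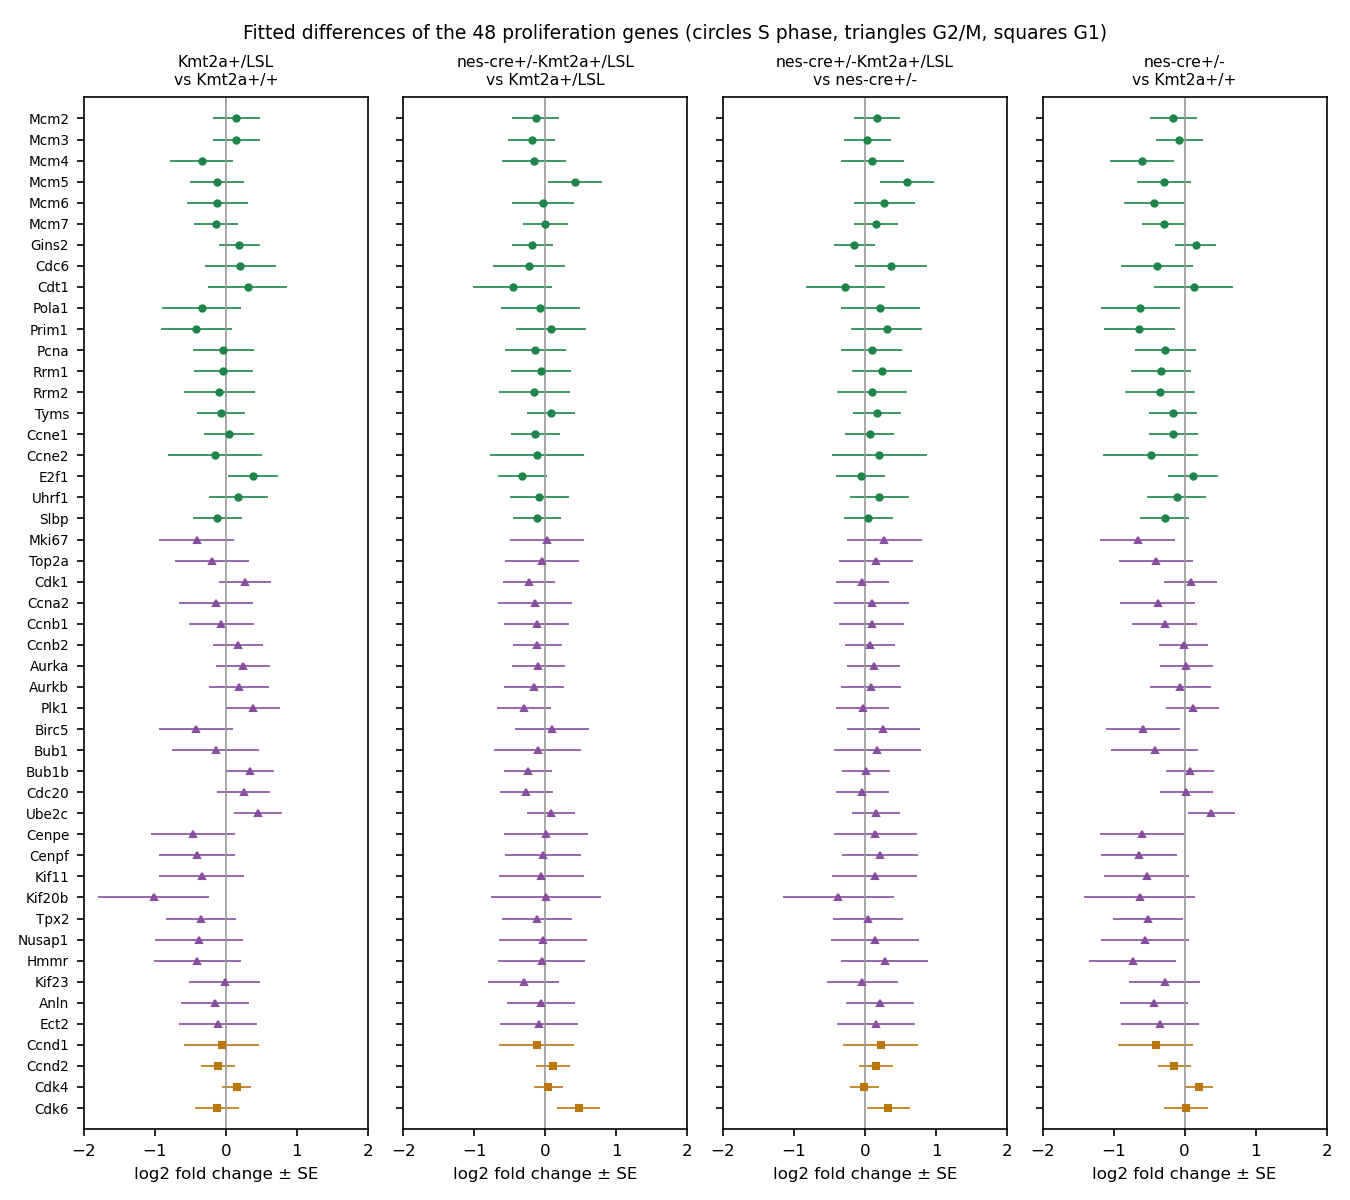
Fitted log2 fold change of each of the 48 genes with its standard error (x axis) in the 4 pairwise comparisons of genotypes, S-phase genes as circles, G2/M genes as triangles and G1 genes as squares. In Kmt2a+/LSL against Kmt2a+/+ the values run from −1.02 (Kif20b) to 0.45 (Ube2c), and no gene passes the test in any panel.

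Setting nes-cre+/-Kmt2a+/LSL against Kmt2a+/LSL asks what the removal of the cassette went with, together with the presence of Cre, in which these genotypes also differ. Of the members, none passed at an adjusted p (0% of all genes) or had an unadjusted p under 0.05 in edgeR (1.61% of all genes). The same held by DESeq2 and limma-voom (4.03% of all genes at an unadjusted p under 0.05 in limma-voom). In 0 of 48 were the libraries apart (7.10% of all genes). The median log2 fold change was −0.13 over the S-phase genes, with 3 positive and 17 negative, and −0.09 over the G2/M genes, with 5 positive and 19 negative. The largest positive value was that of Cdk6 (ENSMUSG00000040274), 0.47 (SE 0.31, edgeR adjusted p = 1.00), and the largest negative that of Cdt1, −0.46 (SE 0.56, edgeR adjusted p = 1.00). Without Kmt2a+/LSL replicate 1, the high library of its genotype, both medians turned positive, to 0.22 and 0.20, and Cdt1 was −0.13. Without nes-cre+/-Kmt2a+/LSL replicate 2 they were −0.01 and 0.04, so the G2/M median turned there too. Without Kmt2a+/LSL replicate 2 they were −0.28 and −0.22, with Cdt1 at −0.71, and the G2/M median was −0.19 without Kmt2a+/LSL replicate 3, −0.26 without nes-cre+/-Kmt2a+/LSL replicate 1 and −0.04 without nes-cre+/-Kmt2a+/LSL replicate 3.

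Against nes-cre+/-, which shares the Cre and lacks the cassette, nes-cre+/-Kmt2a+/LSL again showed 0 of 48 passing at an adjusted p (0% of all genes). At an unadjusted p under 0.05 it was 0 as well (1.11% of all genes in edgeR). The same held by DESeq2 and limma-voom (4.98% of all genes at an unadjusted p under 0.05 in limma-voom). In 0 of 48 were the libraries apart (6.68% of all genes). The medians were 0.16 for S phase, with 17 positive and 3 negative, and 0.13 for G2/M, with 19 positive and 5 negative. Mcm5 (ENSMUSG00000005410) had the largest positive value, 0.59 (SE 0.38, edgeR adjusted p = 1.00), which was 0.20 without nes-cre+/-Kmt2a+/LSL replicate 3, its highest library. Kif20b had the largest negative value, −0.37 (SE 0.78, edgeR adjusted p = 1.00), which was 0.06 without nes-cre+/- replicate 1, −0.63 without nes-cre+/- replicate 3, and −0.98, −0.06 and −0.24 without nes-cre+/-Kmt2a+/LSL replicates 1, 2 and 3. Without nes-cre+/- replicate 3 the medians were −0.01 and −0.04, without nes-cre+/- replicate 1 they were 0.41 and 0.33, and without nes-cre+/-Kmt2a+/LSL replicate 1 they were 0.07 and −0.04. Leaving out nes-cre+/-Kmt2a+/LSL replicate 2 gave 0.26 and 0.24, and the S-phase median was 0.09 without nes-cre+/- replicate 2 and 0.10 without nes-cre+/-Kmt2a+/LSL replicate 3.

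Between nes-cre+/- and Kmt2a+/+, genotypes with the same 2 intact Kmt2a alleles, no gene passed the test. An adjusted p under 0.05 was reached by 0 of 48 (0% of all genes), an unadjusted one by 0 (1.40% of all genes in edgeR), and 0 had libraries apart (4.35% of all genes). DESeq2 had 0 at an unadjusted p under 0.05, for which the share of all genes was not counted. Limma-voom had 5 (6.37% of all genes in limma-voom). The medians were −0.29 for S phase, with 3 positive and 17 negative, and −0.39 for G2/M, with 6 positive and 18 negative. The means of the log2 levels differed by −0.10 for S phase and by 0.02 for G2/M, where 13 genes were higher and 11 lower by that measure. Hmmr, a spindle assembly factor, had the largest negative value, −0.73 (SE 0.62, edgeR adjusted p = 1.00), and Ube2c the largest positive, 0.38 (SE 0.33, edgeR adjusted p = 1.00). For the replication genes Prim1 and Mcm4 the values were −0.64 (SE 0.50, edgeR adjusted p = 1.00) and −0.60 (SE 0.45, edgeR adjusted p = 1.00). Without Kmt2a+/+ replicate 1 the medians were 0.08 and 0.41, Hmmr was 0.57, Prim1 0.28 and Mcm4 0.09. Without Kmt2a+/+ replicate 2 the medians were −0.58 and −0.82, Hmmr was −1.20, Prim1 −1.03 and Mcm4 −0.97, and Mcm4 was −0.94 without nes-cre+/- replicate 1. Ube2c was 0.03 with the GC offset, 0.09 without Kmt2a+/+ replicate 2, 0.75 without Kmt2a+/+ replicate 3 and 0.17 without nes-cre+/- replicate 1. The S-phase and G2/M medians were −0.16 and −0.59 without Kmt2a+/+ replicate 3, −0.51 and −0.60 without nes-cre+/- replicate 1, and −0.13 and −0.21 without nes-cre+/- replicate 3.

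Whether the cassette went with a different change in the presence of Cre than in its absence was tested as the difference between both effects. Again none of the members passed at an adjusted p (0% of all genes) or had an unadjusted p under 0.05 (1.73% of all genes in edgeR). DESeq2 had 0 and limma-voom 6 at an unadjusted p under 0.05 (5.43% of all genes in limma-voom). The median difference was 0.18 for S phase and 0.29 for G2/M in log2 units. It was −0.23 and −0.54 without Kmt2a+/+ replicate 1 and 0.54 and 0.73 without Kmt2a+/+ replicate 2. Leaving out any other library gave between −0.00 and 0.51 for S phase, and between −0.00 and 0.61 for G2/M. The comparisons share libraries, so their values are not independent of each other.

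Other genes of replication and mitosis, from lists drawn up beside the 48, showed the same library pattern. The 28 other replication genes (such as Orc1, Cdc45 and Lig1) had levels of 0.57, −0.89 and 0.17 in the Kmt2a+/+ libraries, and the 33 other mitosis genes had 0.65, −1.10 and 0.07. Kmt2a+/+ replicate 2 was the lowest library for 22 of the 28 and 31 of the 33. Of the other replication genes with a promoter, 5 of 22 (22.7%) held the E2F letters and 6 of 22 (27.3%) the CHR letters. Of the other mitosis genes with a promoter, 1 of 27 (3.70%) and 19 of 27 (70.4%) did. No gene of either list passed an adjusted p of 0.05 in any comparison of the edgeR fit, against 0% of all genes. At an unadjusted p under 0.05 it was also 0, against 1.11% to 1.79% of all genes, depending on the comparison. The smallest p in the test over the 4 genotypes was 0.367 among the replication genes, for Gins4 of the GINS complex, and 0.195 among the mitosis genes, for Cenpa, the histone variant of centromeres. The 23 transcription regulators of the cycle followed another order, with levels of −0.75, −0.13 and 0.27 in Kmt2a+/+. They did not move together in Kmt2a+/+ replicate 1. Tfdp1 and E2f6 were at 0 and E2f3 at 0.65 CPM in this library, while Rb1 (218 CPM) and Rbl1 (105 CPM) had their highest values in it. For the 7 CDK inhibitors, which hold the cycle back, the levels were −0.02, −0.03 and 0.16 in Kmt2a+/+. After removal of the GC trend they were 0.98, −0.17 and −0.12, so that the value of Kmt2a+/+ replicate 1 went from near 0 to the highest of the 12 libraries. Of both lists 0 genes passed in any edgeR comparison, adjusted (0% of all genes) or unadjusted (1.11% to 1.79% of all genes). The smallest p in the edgeR test over the genotypes belonged to Mycn and to Cdkn1c.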

How the data were processed

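The authors sequenced poly(A) RNA of 12 mNPC libraries, pseudoaligned reads to the GRCm38 transcriptome with kallisto 0.48.0 and imported gene sums through tximport. What they deposited are estimated counts as whole numbers for 18911 genes, all of them with counts in at least 2 libraries, so genes seen in fewer had been left out before deposit. These were used unrounded and unscaled, with no column left out. Ensembl identifiers were matched to GENCODE symbols of GRCm38 for 18735 of 18911 genes. Library totals ran from 18280008 to 28596919 counts. A gene was tested if its counts summed to over 10 (17076 genes).

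Counts were fitted with edgeR 4.0.16 in R 4.3.3 (quasi-likelihood F-test, TMM scaling, genotype as the only term, Benjamini-Hochberg adjustment over all genes tested, threshold 0.05). Log2 levels used a prior count of 2. GC content came from the longest coding transcript, and the GC trend of each library was a loess smooth of span 0.5. Promoters came from RefSeq. DESeq2 1.42.0, limma 3.58.1 (voom with quality weights), other scalings, filters and offsets, a replicate block and leaving out each library were alternatives. The fits were tested on simulated data with known changes.

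The genes and lists were chosen with earlier results of these data known. Values in every library are given for fixed representatives and for the 6 members with the smallest p over the 4 genotypes. Fold changes are given for those 6, for the largest positive and negative value in each comparison and for Kmt2a. In Kmt2a+/LSL against Kmt2a+/+ they are also given for Birc5 and as the extremes of some role groups. Genes of other lists are named only for the smallest p or as examples of a list.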

Additional observations from a re-analysis of the deposited data

How the results depend on the processing

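In 156 alternative results, from 6 tests under 27 settings, 0 of the 48 genes were called, and at most 10 genes of the whole table were. Most fits served several of the tests, so these are not separate fits. One setting only raised the threshold on the adjusted p to 0.1. Of 252 alternative group medians, 36 changed sign. With limma-voom, the S-phase and G2/M medians were 0.57 and 0.89 for Kmt2a+/LSL against Kmt2a+/+, 0.24 and 0.61 for nes-cre+/- against Kmt2a+/+, and −0.38 and −0.83 for the difference of the cassette effects. Leaving out each library in turn, the G2/M medians of these ran from −0.56 to 0.62, from −0.82 to 0.41 and from −0.54 to 0.73. Without both libraries of GC slope below −0.2, an alternative chosen after seeing the data, they were 0.62, 0.41 and −0.69. The cause was not tested. Of the single genes, Kif20b in Kmt2a+/LSL against Kmt2a+/+ was 0.99 with limma-voom, −1.53 to 0.61 leaving out each library and 0.61 without both steep libraries. In nes-cre+/- against Kmt2a+/+ the same 3 settings gave 0.099, −0.97 to 0.0947 and 0.0945 for Mcm4, 0.30, −1.03 to 0.28 and 0.28 for Prim1, and 0.79, −1.20 to 0.57 and 0.57 for Hmmr. Kif20b in nes-cre+/-Kmt2a+/LSL against nes-cre+/- ran from −0.98 to 0.0597 leaving out each library. Over the 10 fold changes of single members followed through the alternatives (edgeR, DESeq2 or limma-voom), the smallest adjusted p was 0.58. Among all members it was 0.55 in edgeR for Kmt2a+/LSL against Kmt2a+/+ without Kmt2a+/+ replicate 1.

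To see whether replicate numbers pair the libraries, the deviation of each library from the mean of its genotype was correlated between libraries of different genotypes. Over the genes with a mean count of at least 100, libraries with the same number had a mean r of 0.15 over 18 pairs, 9 of them over 0.1. For different numbers it was −0.07, with 9 of 36 pairs over 0.1. Over the 48 genes the mean r was 0.31, with 14 of 18 pairs over 0.1. For different numbers it was −0.15, with 13 of 36 pairs over 0.1. Since these deviations sum to 0 within a genotype, the mean for different numbers is largely fixed by the mean for the same number. It is therefore not a separate contrast. Since not every pair exceeded 0.1 in either set and the labels name no shared litter or day, the numbers were not taken to pair the libraries. With the replicate block 0 of 48 genes were called in each comparison, and the S-phase and G2/M medians were 0.06 and 0.06 for Kmt2a+/LSL against Kmt2a+/+ and −0.15 and −0.13 for nes-cre+/- against Kmt2a+/+. The GC slopes and the S-phase and G2/M library levels kept their sign under the 2 settings tried for each. Of the G1 levels, that of Kmt2a+/+ replicate 1 turned from −0.004 to 0.109 after GC removal and 0.067 with DESeq2 scaling, and that of nes-cre+/-Kmt2a+/LSL replicate 2 from 0.006 to −0.002 after GC removal. The lowest count behind any value of these genes was 88.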
